A study of Mus musculus with 8 samples.

Results

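The 37 mitochondrially encoded genes of the mouse were followed across 8 testis RNA-seq libraries. They are all the Ensembl identifiers, of 55421 in each library, whose GENCODE M21 symbol begins with mt-. They comprise 13 genes for mRNAs, 2 for rRNAs and 22 for tRNAs. Of these, 29 passed the filter on low counts, namely the 13 mRNAs, both rRNAs and 14 of the tRNAs. The name rests on the annotation alone, since all 37 lie on chromosome M.

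The testes came from male mice of wild-type genotype per the labels. The sources used here give neither strain nor age. CTRL animals received phosphate-buffered saline. The other groups received 1 intraperitoneal dose of lipopolysaccharide (LPS), an outer membrane component of Gram-negative bacteria that sets off inflammation. LPS mice had nothing further, LPS+DHEA mice were given dehydroepiandrosterone (DHEA), a precursor of sex steroids, 6 h later, and LPS+DHEA+Nb mice were given DHEA together with Nb23-bi, an agent the labels name without describing. Every group had 2 libraries. The sources used here give no doses, no collection time and no animal for each library, so the p-values measure only the spread between these libraries, which may be technical.

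The mitochondrial genome is a small circle carried in many copies per cell. It is transcribed from both strands as long precursors, which are cut at the tRNAs that lie between most of the other genes, so that mRNAs, rRNAs and tRNAs start from common transcripts and reach their levels through differing stability. Its mRNAs encode core subunits of respiratory complexes I, III and IV and of ATP synthase, while the proteins that copy, transcribe and translate it are imported from the cytosol. In the testis, mitochondria serve the energy needs of germ cells and of sperm, and in Leydig cells they hold the first step of steroid synthesis.

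Library totals were 61.3 to 64.5 M counts. The markers of spermatids and sperm summed to 23030 and 23870 CPM (counts scaled to a library total of 1 M) for CTRL, 20890 and 21890 for LPS, 21080 and 22400 for LPS+DHEA, and 22130 and 22550 for LPS+DHEA+Nb. Of these 12 genes, 10 had negative log2 fold changes in LPS against CTRL (median -0.16), with none called. The epididymal list stayed between 0 and 0.294 CPM with 1 of its 6 genes at 0 throughout. The protocol for RNA extraction mentions islets, and the tissue was taken from its label. Markers of peritubular myoid and smooth muscle cells summed to 145 to 149 CPM in CTRL, 235 to 244 in LPS, 218 to 245 in LPS+DHEA and 160 to 164 in LPS+DHEA+Nb. Leydig cell markers summed to 868 to 1026 CPM in CTRL, 716 to 736 in LPS, 637 to 668 in LPS+DHEA and 840 to 953 in LPS+DHEA+Nb. Neutrophil markers lay at 1.18 to 1.56 CPM in CTRL, 4.17 to 6.81 in LPS, 3.46 to 7.46 in LPS+DHEA and 1.19 to 2.06 in LPS+DHEA+Nb, with S100a8, S100a9, Ly6g, Retnlg and Cxcr2 at 0 in a CTRL library. Sertoli cell markers summed to 783 to 799 CPM in CTRL, 1025 to 1079 in LPS, 996 to 1064 in LPS+DHEA and 802 to 956 in LPS+DHEA+Nb. In these bulk libraries a smaller number of cells of a type and less RNA per cell cannot be told apart, and the part of cell composition in the mitochondrial values was not tested.

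Of the 12 mRNAs read from the strand that also carries both rRNAs, several share bases with a neighbour, so that their counts are not fully separate. The last 43 bases of mt-Atp8 are the first 43 of mt-Atp6, and mt-Nd4l and mt-Nd4 share 7 bases. Both junctions are shown because they join reading frames on 1 mRNA, and both were taken from GENCODE M21 transcripts (GRCm38, plus strand). In the overlap at chrM:7927-7969 the capitals mark the first codon of mt-Atp6 and the last 3 bases of mt-Atp8. At chrM:10154-10193 they mark the 7 shared bases.
mt-Atp8 and mt-Atp6 overlap: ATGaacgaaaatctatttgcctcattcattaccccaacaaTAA
mt-Nd4l and mt-Nd4 join: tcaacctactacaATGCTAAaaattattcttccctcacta
On opposite strands, mt-Nd5 and mt-Nd6 share 14 bases. The libraries were made with a stranded kit, but the sources used here do not give the strand setting of the counting, so reads of the 2 strands cannot be told apart there.

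mRNAs made up 97.5 to 98.6% of the mitochondrial counts and 0.872 to 1.21% of all counts. Per length, mt-Co1 ranked first in each of the 8 libraries, at a mean of 2920 CPM per kb, and encodes the catalytic subunit of cytochrome c oxidase (complex IV). mt-Atp8, a small subunit of ATP synthase, ranked second in all 8, at 1280 CPM per kb. mt-Co2 and mt-Co3, the other mitochondrial subunits of complex IV, followed at 1101 and 1042 CPM per kb and changed places in 1 library. The complex I subunit mt-Nd1 lay at 859 CPM per kb and mt-Cytb, the mitochondrial subunit of complex III, at 711. Lower still were the complex I subunits mt-Nd2 at 456, mt-Nd4 at 417, mt-Nd4l at 402, mt-Nd5 at 348, mt-Nd6 at 263 and mt-Nd3 at 172 CPM per kb. mt-Atp6, the proton channel subunit of ATP synthase, was lowest at 157 CPM per kb. mt-Co1, mt-Atp8, mt-Nd5 and mt-Nd6 held the same rank in 8 of 8 libraries and each of the other 9 in 7 of 8. The shifts fell in both CTRL libraries, the second LPS library and the first LPS+DHEA+Nb library. Single ranks were thus mostly kept, while the full order was not the same in all 8. In these libraries the ribosomal RNAs mt-Rnr1 (12S) and mt-Rnr2 (16S) gave only 80.2 and 57.8 CPM per kb, below every mRNA. The part of RNA selection during library preparation in these levels was not tested. They therefore give no order of rRNAs and mRNAs in the tissue.

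The per-length level of mt-Atp6 depends on where its reads were counted. A stretch of chromosome 1 (GRCm38, chr1:24611535-24616197, minus strand) holds 7 unprocessed pseudogenes that are nuclear copies of mitochondrial genes. Gm28661 matches mt-Co2 at 681 of 681 bases, Gm28437 matches mt-Co3 at 783 of 783, Gm10925 matches mt-Atp6 at 678 of 678, Gm10222 matches mt-Nd4l at 294 of 294 and Gm28439 matches 876 bases of mt-Nd4 at all 876. Gm28438 differs from mt-Nd3 by T3C in 345 bases, and Gm29216 from mt-Co1 by A1066T over 483 bases, positions being counted from the first base of the mitochondrial gene, with the mitochondrial base first. Of all 100-base windows of mt-Co2, mt-Atp6, mt-Co3, mt-Nd3 and mt-Nd4l, between 97.6 and 99.9% also occur in another annotated transcript, against 60.8% for mt-Nd4, 30.8% for mt-Co1 and 3.19% for mt-Nd2. None did for mt-Rnr1, mt-Rnr2, mt-Nd1, mt-Atp8, mt-Nd5, mt-Nd6 or mt-Cytb. Only annotated transcripts were searched, so matches in genome sequence outside them were not tested. One such stretch lies between Gm10925 (end 24614651) and Gm28661 (start 24614885), the copies of the genes on either side of mt-Atp8.

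Counts at the copies ran alongside those of the mitochondrial genes. The count of mt-Co2 was 101 to 102% of that of Gm28661 in the 8 libraries, mt-Co3 100 to 102% of Gm28437, mt-Nd3 101 to 103% of Gm28438 and mt-Nd4l 101 to 103% of Gm10222. mt-Nd4 stood at 270 to 291% of its shorter copy, with 1378 bases against 876. mt-Co1 stood at 1010 to 1080% of Gm29216, with 1545 bases against 492. Both gaps exceeded the difference in length. mt-Atp6 alone fell below its copy, with 15.1 to 16.6% of the count of Gm10925. The counts of Gm10925 were 52494 and 41938 for CTRL, 35930 and 38760 for LPS, 42049 and 36930 for LPS+DHEA, and 45502 and 46630 for LPS+DHEA+Nb. The sources used here do not give the counting of reads with several matches, and reads of the identical stretches cannot be assigned to a genome. All 7 copies together took 0.263 to 0.358% of the counts, and with them included the mRNA share was 1.14 to 1.57%, in which a read counted at both loci would stand more than once.

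**Figure D1:**
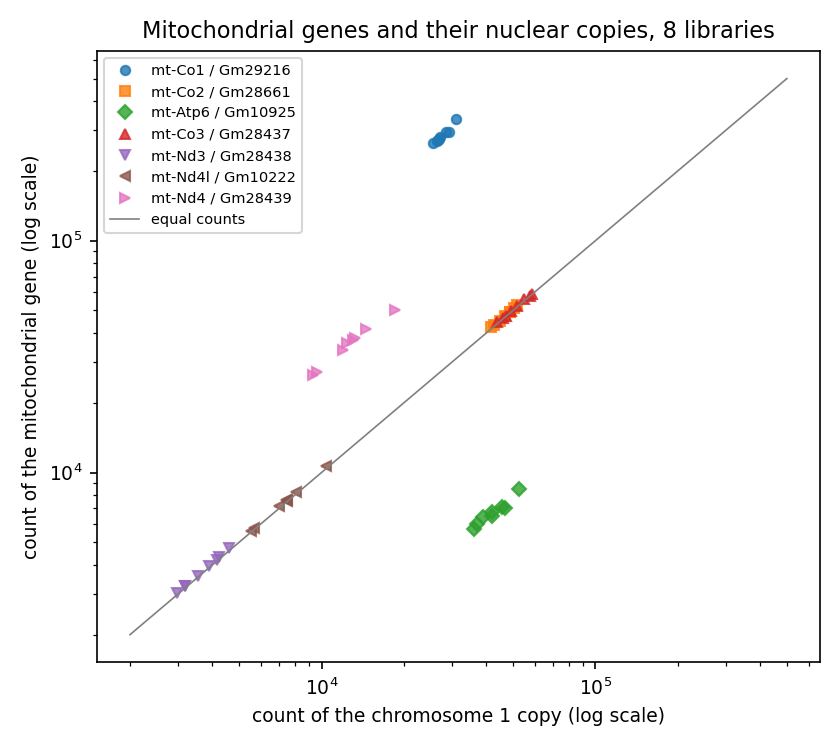
Count of each mitochondrial gene (y, log scale) against the count of its chromosome 1 copy (x, log scale), 1 point per library for 7 gene pairs in 8 libraries. The pairs of mt-Co2, mt-Co3, mt-Nd3 and mt-Nd4l lie on the line of equal counts. mt-Atp6 lies below it at 15.1 to 16.6% of its copy. mt-Co1 and mt-Nd4, whose copies are shorter, lie above it by more than the difference in length.

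LPS against CTRL asked how the mitochondrial transcripts stood under inflammation. The mRNAs of all complexes were at lower levels in LPS on average, and the small ribosomal RNA mt-Rnr1 was at a higher one, but none of the 29 members tested passed the edgeR quasi-likelihood test after Benjamini-Hochberg adjustment over 26414 genes. limma-voom also called 0 members, and DESeq2 called 3, mt-Rnr1 higher and mt-Nd5 and mt-Nd6 lower. In this comparison edgeR called 0.295% of all genes tested. The 13 mRNAs had negative log2 fold changes in 13 of 13 cases, with a median of -0.36 and a range of -0.52 to -0.18, beside a median of 0.00 and 50.3% negative over all genes tested. At an unadjusted p under 0.05 there were 9 of the 13 mRNAs, all lower, against 7.11% of all genes in either direction. Both LPS libraries lay below both CTRL libraries for 10 of the 13 mRNAs, on CPM scaled by TMM, where 18.1% of all genes did so. The exceptions were mt-Nd1, mt-Co1 and mt-Atp6. On the unscaled CPM printed for each library it was 10 as well, beside 15.7% of all genes, with the same exceptions. The mRNAs share libraries and, on the same strand, precursors. In this and the later comparisons, numbers of mRNAs out of 13 are therefore not numbers of independent genes.

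Complex I takes electrons from NADH, and its mitochondrial subunits form the proton-pumping arm in the membrane. mt-Nd1 had 1071 and 668 CPM for CTRL, 699 and 780 for LPS, 846 and 786 for LPS+DHEA, and 819 and 903 for LPS+DHEA+Nb. mt-Nd2 had 574 and 475 CPM for CTRL, 397 and 438 for LPS, 481 and 437 for LPS+DHEA, and 467 and 514 for LPS+DHEA+Nb. The CTRL libraries thus span the whole range of mt-Nd1, whereas both CTRL values of mt-Nd2 exceed both LPS values. mt-Nd3 stood at 74.2 and 55.4 CPM for CTRL, 51 and 49.1 for LPS, 62.8 and 52.9 for LPS+DHEA, and 67.8 and 66.5 for LPS+DHEA+Nb. For mt-Nd4l the values were 168 and 118 CPM for CTRL, 87.8 and 116 for LPS, 120.2 and 94.1 for LPS+DHEA, and 119 and 131 for LPS+DHEA+Nb. mt-Nd4 showed 787 and 559 CPM for CTRL, 413 and 544 for LPS, 594 and 443 for LPS+DHEA, and 598 and 658 for LPS+DHEA+Nb. The first LPS library and the second LPS+DHEA library were the lowest for mt-Nd4l and mt-Nd4, and the first CTRL library was the highest for each gene named so far. mt-Nd5 gave 831 and 669 CPM for CTRL, 506 and 608 for LPS, 652 and 540 for LPS+DHEA, and 604 and 669 for LPS+DHEA+Nb. mt-Nd6, the only mRNA of the opposite strand, gave 171 and 146 CPM for CTRL, 104 and 122 for LPS, 145 and 115 for LPS+DHEA, and 137 and 154 for LPS+DHEA+Nb. The LPS libraries lay below the CTRL libraries for both.

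Fitted log2 fold changes of the complex I mRNAs in LPS against CTRL ran from -0.26 for mt-Nd1 (SE 0.23) to -0.52 for mt-Nd4 (SE 0.24), with a median of -0.45 over the 7. The smallest p among all 13 mRNAs belonged to mt-Nd6, at -0.51 (SE 0.13), a difference of -29.9%, with an adjusted p of 0.238 in edgeR. mt-Nd2 followed at -0.35 (SE 0.09) and an adjusted p of 0.27 in edgeR.

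mt-Cytb, a haem-carrying subunit of complex III, had 991 and 852 CPM for CTRL, 642 and 763 for LPS, 831 and 639 for LPS+DHEA, and 842 and 950 for LPS+DHEA+Nb. Its log2 fold change in LPS against CTRL was -0.42 (SE 0.14). mt-Co1 had 5244 and 4236 CPM for CTRL, 4129 and 4375 for LPS, 4671 and 4384 for LPS+DHEA, and 4364 and 4686 for LPS+DHEA+Nb. Its groups overlapped, and its log2 fold change of -0.18 (SE 0.09) was the one closest to 0 among the mRNAs. mt-Co2 stood at 831 and 732 CPM for CTRL, 664 and 730.2 for LPS, 781 and 706 for LPS+DHEA, and 769 and 813 for LPS+DHEA+Nb. mt-Co3 stood at 928 and 767 CPM for CTRL, 729.9 and 718 for LPS, 826 and 774 for LPS+DHEA, and 906 and 885 for LPS+DHEA+Nb. These 2 subunits had log2 fold changes of -0.19 and -0.25 (SE 0.08 each).

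ATP synthase makes ATP from the proton gradient. mt-Atp8 had 332 and 265 CPM for CTRL, 212 and 261 for LPS, 254 and 229.5 for LPS+DHEA, and 257 and 278 for LPS+DHEA+Nb. mt-Atp6 had 134 and 101 CPM for CTRL, 89.5 and 104 for LPS, 107 and 97.6 for LPS+DHEA, and 111 and 111 for LPS+DHEA+Nb. The log2 fold changes in LPS against CTRL were -0.36 (SE 0.12) and -0.30 (SE 0.13), and Gm10925, the copy with the higher count, gave -0.33 (SE 0.11).

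**Figure D2:**
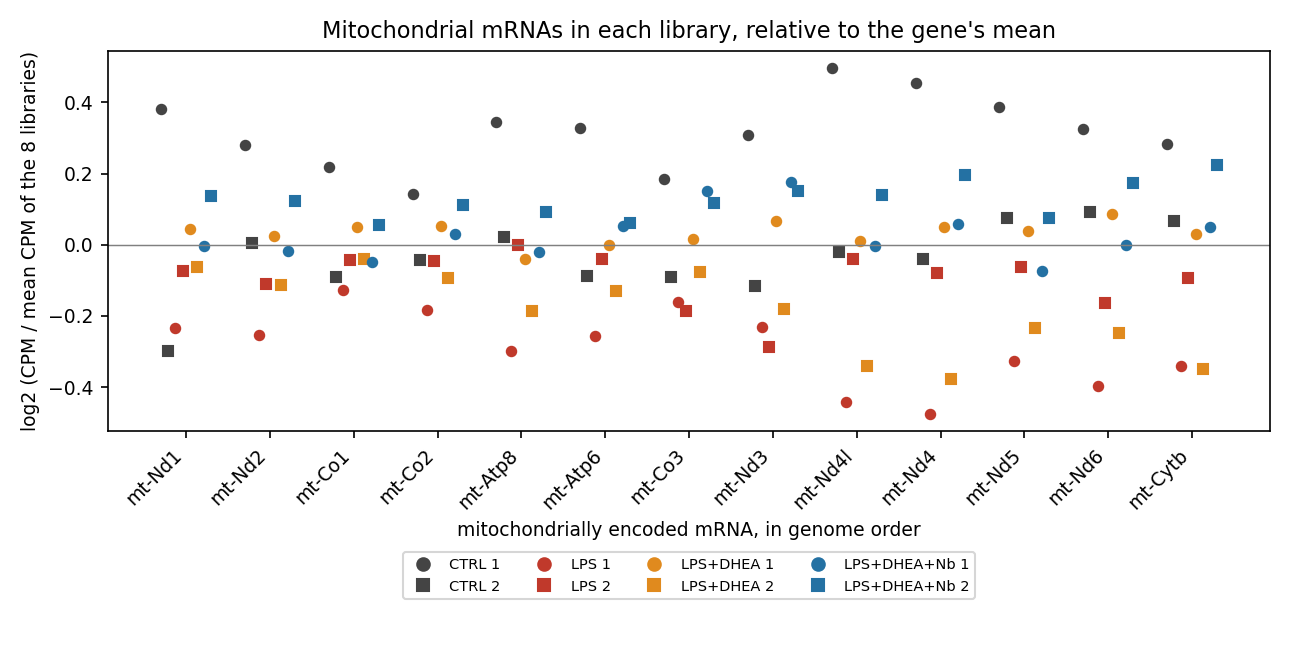
CPM of each of the 13 mitochondrial mRNAs relative to the gene's mean over the 8 libraries, as log2 (y), in genome order (x), 1 point per library with colours for groups and circles and squares for libraries 1 and 2. The first CTRL library stands highest for each mRNA and the LPS libraries stand mostly below 0, while the second CTRL library is the lowest of all for mt-Nd1.

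The first CTRL library carried much of the difference between LPS and CTRL. Its mRNA share of 1.21% of all counts was the highest of the 8, while the second CTRL library, at 0.964%, was close to the LPS libraries at 0.872 and 0.961%. LPS+DHEA libraries had 1.04 and 0.93%, and LPS+DHEA+Nb libraries 1.01 and 1.08%. The median log2 fold change of the 13 mRNAs was -0.52 without the second CTRL library and -0.18 without the first. An exact permutation test of the mRNA share over the 4 groups gave p = 0.486 (adjusted over 6 measures, 0.606), where 105 distinct splits allow a smallest p of 0.00952. For the 6 libraries exposed to LPS against the 2 CTRL libraries the exact permutation test gave p = 0.25 (adjusted 0.375), where 28 splits allow a smallest p of 0.0357.

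Along the strand of the 12 mRNAs, the fold changes of LPS against CTRL were larger in size towards the far end. The 8 mRNAs from mt-Nd1 to mt-Nd3 had a median log2 fold change of -0.28 (range -0.39 to -0.18), and the last 4, mt-Nd4l, mt-Nd4, mt-Nd5 and mt-Cytb, a median of -0.48 (range -0.52 to -0.42), so the ranges did not overlap. Spearman's rho between start position and log2 fold change was -0.75 over the 12 genes, which share libraries and precursors and are not independent replicates. In LPS+DHEA against CTRL rho was -0.69, with medians of -0.15 and -0.38. It was -0.27 in LPS+DHEA+Nb and -0.59 in the LPS-exposed libraries against CTRL, -0.21 in LPS+DHEA and 0.51 in LPS+DHEA+Nb against LPS, and 0.75 in LPS+DHEA+Nb against LPS+DHEA. Within the libraries, mt-Nd4 gave 150 and 132 counts per 1000 mt-Co1 counts for CTRL, 100.1 and 124 for LPS, 127 and 101 for LPS+DHEA, and 137 and 140.4 for LPS+DHEA+Nb. CTRL and LPS+DHEA+Nb libraries lay at 132 to 150, and the other 4 at 100.1 to 127. The split by position and this ratio were chosen after their values were seen and carry no test.

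Nuclear genes whose products join the same complexes had medians nearer to 0 in LPS against CTRL. Of the 36 nuclear complex I subunits none was called, and their median log2 fold change was -0.02, beside -0.45 for the 7 mitochondrial ones. The nuclear medians were -0.01 over 9 genes for complex III, -0.08 over 17 for complex IV and -0.04 over 17 for ATP synthase, beside -0.42, -0.19 and -0.33 for the mitochondrial members. Complex II, which has no mitochondrially encoded subunit, had a median of 0.02 over 4 genes. By smallest p, the examples were Ndufa3 at 0.33 and Ndufs4 at -0.19 for complex I, Sdhc at 0.10 and Sdhd at -0.14 for complex II, and Uqcrb at -0.31 and Uqcrq at 0.06 for complex III. For complex IV they were Cox6c at -0.15 and the testis-enriched Cox8c at -0.11, and for ATP synthase Atp5j2 at -0.22 and Atp5c1 at -0.16, none of which passed the test.

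The machinery that reads the mitochondrial genome was also near 0 in LPS against CTRL, with no gene called in either direction. The median was -0.03 over 24 genes of mitochondrial transcription and DNA maintenance, where Mgme1, an exonuclease of mitochondrial DNA, stood at 0.55 (SE 0.20) and Tefm, an elongation factor of the mitochondrial polymerase, at -0.39 (SE 0.20). It was -0.01 over 22 genes of RNA processing and stability, where Slirp, which binds and stabilises mitochondrial mRNAs, stood at -0.28 (SE 0.10) and the helicase Supv3l1, which takes part in their decay, at -0.25 (SE 0.11). The 78 mitochondrial ribosomal protein genes had a median of -0.03, with Mrps18c at -0.40 and Mrpl21 at -0.36. Of 7 regulators of mitochondrial biogenesis, with a median of 0.01, the coactivator Ppargc1b stood at 0.75 (SE 0.33) and the nuclear receptor Esrra at -0.26 (SE 0.14). At an unadjusted p under 0.05 these lists held 1, 2, 3 and 1 genes.

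mt-Rnr1 encodes the RNA of the small subunit of the mitochondrial ribosome and was the 1 member called by edgeR in any comparison, as it was called in LPS+DHEA against CTRL. It had 64.3 and 53.5 CPM for CTRL, 78.3 and 92.3 for LPS, 94.3 and 99.1 for LPS+DHEA, and 62.8 and 67.9 for LPS+DHEA+Nb. The LPS and LPS+DHEA libraries were all above the CTRL and LPS+DHEA+Nb libraries, with group means of 85.3 ± 9.88 and 96.7 ± 3.38 CPM against 58.9 ± 7.64 and 65.3 ± 3.63 (SD, n = 2 each). In LPS+DHEA against CTRL mt-Rnr1 rose by 0.69 on the log2 scale (SE 0.11), a 1.61-fold difference, with an adjusted p of 0.0385 in edgeR. In that comparison 0.151% of all genes tested were called.

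That call was near the threshold. The log2 fold change was 0.55 with an adjusted p of 0.21 in edgeR without the second CTRL library, and the adjusted p was 0.134 and 0.186 without either LPS+DHEA library. With limma-voom it was 0.0778, with DESeq2 8.88e-06. In LPS against CTRL the log2 fold change of mt-Rnr1 was 0.51 (SE 0.11), 1.42-fold, with an adjusted p of 0.124 in edgeR and 0.00344 in DESeq2. In LPS+DHEA+Nb against CTRL it was 0.13 (SE 0.11), and in LPS+DHEA against LPS 0.18 (SE 0.11). In LPS+DHEA+Nb against LPS it was -0.38 (SE 0.11; adjusted p 0.399 in edgeR) and against LPS+DHEA -0.56 (SE 0.11; adjusted p 0.192 in edgeR).

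mt-Rnr2, the RNA of the large subunit, did not follow mt-Rnr1 in the CTRL libraries. It had 110.3 and 70.9 CPM for CTRL, 82.8 and 93.2 for LPS, 92.4 and 116.5 for LPS+DHEA, and 79.2 and 85.7 for LPS+DHEA+Nb. Its CTRL libraries spanned nearly the whole range, and its log2 fold changes were -0.07 in LPS and 0.18 in LPS+DHEA against CTRL (SE 0.23 each; adjusted p 0.988 and 0.989 in edgeR). The interval of 955 bases that is mt-Rnr1 (chrM:70-1024, plus strand) and the 1582 bases of mt-Rnr2 (chrM:1094-2675, plus strand) are separated by mt-Tv alone. mt-Rnr1 gave 583 and 755 counts per 1000 mt-Rnr2 counts for CTRL, 947 and 990.3 for LPS, 1021 and 850.2 for LPS+DHEA, and 792 and 792 for LPS+DHEA+Nb. Ratios within CTRL differed as much as those between some groups.

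Relative to the mRNAs of the same library the split of the groups was wider. Counts of mt-Rnr1 per 1000 mRNA counts were 5.3 and 5.55 for CTRL, 8.98 and 9.61 for LPS, 9.09 and 10.7 for LPS+DHEA, and 6.24 and 6.27 for LPS+DHEA+Nb. The CTRL libraries lay close together in this ratio although their mRNA shares differed. It was chosen after its values were seen and carries no test. For both rRNAs together, the ratio fixed for testing, the values were 14.4 and 12.9 for CTRL, 18.5 and 19.3 for LPS, 18 and 23.2 for LPS+DHEA, and 14.1 and 14.2 for LPS+DHEA+Nb. The exact permutation test over the 4 groups gave p = 0.0857 (adjusted over 6 measures, 0.495), and for the LPS-exposed against the CTRL libraries p = 0.214 (adjusted 0.375).

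**Figure D3:**
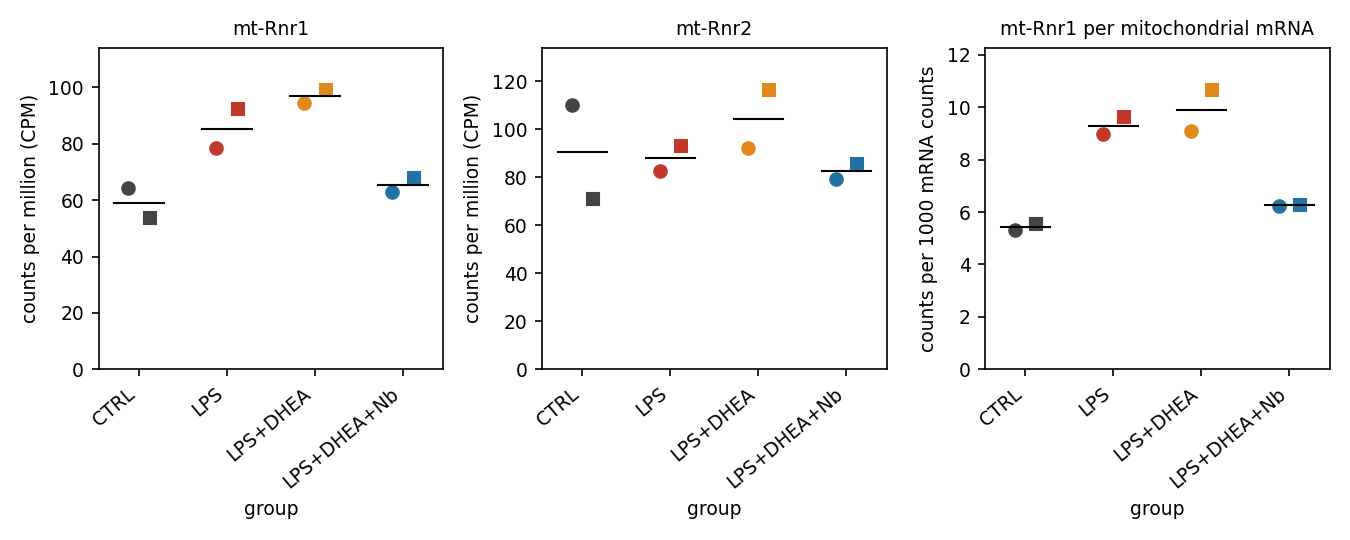
CPM of mt-Rnr1 (left) and mt-Rnr2 (middle) and counts of mt-Rnr1 per 1000 mitochondrial mRNA counts (right) by group (x), with circles and squares for libraries 1 and 2 and a bar at the mean of 2 libraries, axes from 0. LPS and LPS+DHEA lie above CTRL and LPS+DHEA+Nb in the left and right panels, at 8.98 to 10.7 against 5.3 to 6.27 counts per 1000, while the CTRL libraries of mt-Rnr2 span 70.9 to 110.3 CPM.

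The groups with higher mt-Rnr1 were also those with higher smooth muscle, Sertoli, endothelial and neutrophil marker sums and lower Leydig marker sums. Marker sums of spermatogonia, spermatocytes, spermatids and sperm, macrophages, red blood cells and adipocytes overlapped between these groups and the others. Endothelial markers summed to 22.47 to 25.4 CPM in CTRL, 30.65 to 38.62 in LPS, 28.1 to 31.84 in LPS+DHEA and 26.54 to 26.88 in LPS+DHEA+Nb. In LPS against CTRL, 6 of 6 smooth muscle markers had positive log2 fold changes (median 0.54), 1 of them called, Acta2 at 1.10 (adjusted p 0.000737 in edgeR), and in LPS+DHEA+Nb against LPS 6 of 6 were negative (median -0.65). Of 8 Sertoli markers, 5 were positive in LPS against CTRL (median 0.13) and 6 negative in LPS+DHEA+Nb against LPS (median -0.17), with none called in either. Against CTRL their median was 0.08 in LPS+DHEA and 0.10 in LPS+DHEA+Nb, with 5 of 8 positive in each. These medians thus did not split the groups as the Sertoli sums did. Leydig markers had medians of -0.88 and 0.84 in the same 2 comparisons, with none of 8 called in either. Non-polyadenylated RNAs summed to 6.66 and 13.7 CPM for CTRL, 12.4 and 10.7 for LPS, 8.16 and 8.78 for LPS+DHEA, and 12.4 and 9.48 for LPS+DHEA+Nb. The LPS and CTRL libraries overlapped in this sum. In LPS against CTRL Rn7s1 and Terc of that list stood at 0.28 and 0.82, and of 5 nuclear retained RNAs, with a median of -0.08, Malat1 and Neat1 stood at -0.18 each. The part of cell types and of library selection in the mitochondrial values was not tested.

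Adding DHEA after LPS gave values close to those of LPS alone. In LPS+DHEA against LPS, 0.0189% of all genes tested were called, and 0 of the 29 members passed in edgeR, in DESeq2 or in limma-voom, with 0 at an unadjusted p under 0.05, beside 3.51% of all genes. The 13 mRNAs had positive log2 fold changes, with a median of 0.09 (range 0.03 to 0.20) beside 0.00 over all genes, 49.2% of which were negative. Both LPS+DHEA libraries exceeded both LPS libraries for 5 of 13 on TMM-scaled CPM, mt-Nd1, mt-Nd2, mt-Co1, mt-Co3 and mt-Nd3, where 16.1% of all genes did so. On unscaled CPM mt-Nd2 overlapped, which left 4, beside 16.6%. The second LPS+DHEA library, with a share of 0.93%, lay within the LPS range. Against CTRL, LPS+DHEA had negative log2 fold changes for 13 of 13 mRNAs (median -0.23, range -0.44 to -0.09), where 48.8% of all genes were negative. None was called, 5 were at an unadjusted p under 0.05, beside 5.72% of all genes, and for 6 both libraries lay below both CTRL libraries on TMM-scaled CPM, beside 16.6%. On unscaled CPM there were 4, mt-Atp8, mt-Nd5, mt-Nd6 and mt-Cytb, beside 14.1%.

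In LPS+DHEA+Nb against LPS the 13 mRNAs had positive log2 fold changes, with a median of 0.24 (range 0.10 to 0.43) beside 0.00 over all genes, 49.5% of which were negative. Both LPS+DHEA+Nb libraries exceeded both LPS libraries for 13 of 13 mRNAs on TMM-scaled CPM, where 18.1% of all genes did so. On unscaled CPM they did for 10, beside 17.6% of all genes, and mt-Co1, mt-Atp8 and mt-Nd5 overlapped. None of the 29 members passed in edgeR, DESeq2 or limma-voom, while 0.17% of all genes tested were called in edgeR, and 6 of the 13 mRNAs were at an unadjusted p under 0.05, beside 6.56% of all genes. mt-Nd3 had the highest log2 fold change, 0.43 (SE 0.13; adjusted p 0.481 in edgeR), and mt-Co3 the smallest p, at 0.31 (SE 0.08; adjusted p 0.323 in edgeR). mt-Nd4 at 0.40, mt-Nd6 at 0.37 and mt-Cytb at 0.36 came next, and mt-Co1 was lowest at 0.10. Since this comparison and LPS against CTRL share the LPS libraries, their opposite signs are not separate observations. The nuclear subunits had medians of -0.02 for complex I, 0.08 for complex III, 0.14 for complex IV and 0.02 for ATP synthase, with none called, beside 0.30, 0.36, 0.19 and 0.19 for the mitochondrial ones.

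Against LPS+DHEA, the group that differs from it in Nb23-bi alone, LPS+DHEA+Nb had positive log2 fold changes for 13 of 13 mRNAs (median 0.16, range 0.01 to 0.29). Over all genes 50.5% were negative. Both its libraries were above both LPS+DHEA libraries for 8 of the mRNAs on TMM-scaled CPM, beside 15.7% of all genes, and for 6 on unscaled CPM, beside 14.6%, where mt-Co2 and mt-Nd4l overlapped. No member passed in edgeR or limma-voom, where 0.0871% of all genes were called by edgeR, and 1 was at an unadjusted p under 0.05, beside 4.4% of all genes, namely mt-Rnr1, which was also the 1 member called lower by DESeq2. Spearman's rho with position was 0.75 over 12 mRNAs, with medians of 0.12 for the first 8 and 0.26 for the last 4. Against CTRL, LPS+DHEA+Nb had the mRNA median nearest to 0 of the comparisons with CTRL, -0.10 (range -0.26 to 0.06), with 11 of 13 negative, beside 49.6% of all genes. No member was called by edgeR, DESeq2 or limma-voom, where edgeR called 0.0303% of all genes, and 1 tRNA was at an unadjusted p under 0.05, beside 4.28%. Without the first CTRL library that median was 0.08.

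**Figure D4:**
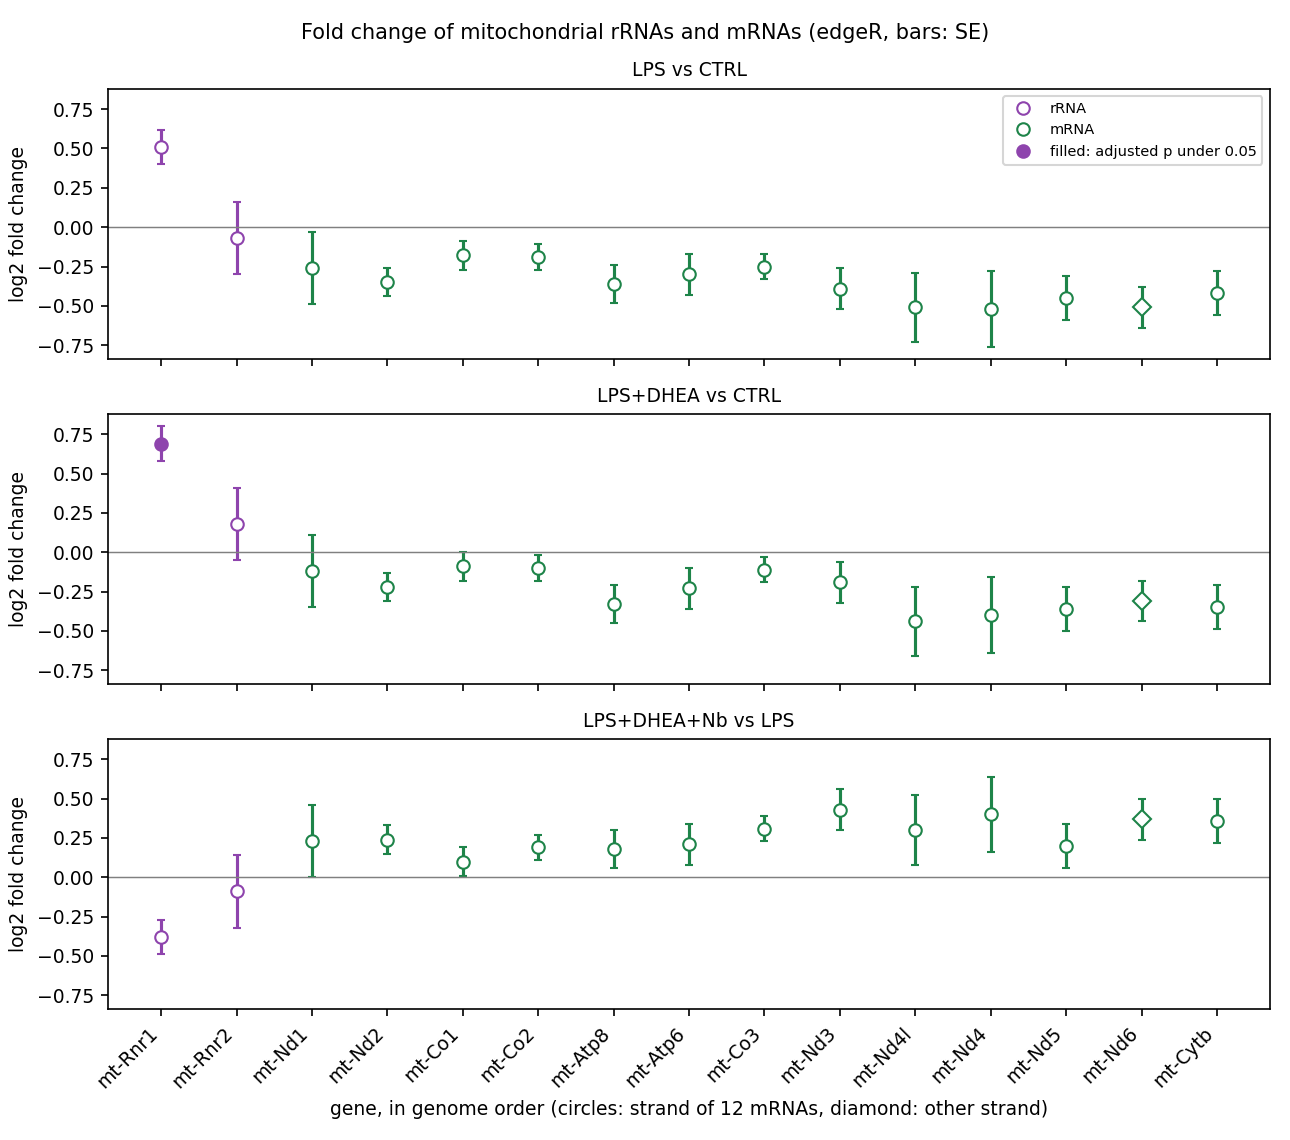
Log2 fold changes with SE bars (y) of both rRNAs and the 13 mRNAs in genome order (x), from edgeR, in LPS against CTRL, LPS+DHEA against CTRL and LPS+DHEA+Nb against LPS, with a diamond for mt-Nd6 of the opposite strand and a filled symbol for an adjusted p under 0.05. The mRNAs lie below 0 in the upper 2 panels and above 0 in the lowest, mt-Rnr1 lies on the other side in each, and only mt-Rnr1 in LPS+DHEA against CTRL is filled.

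Over the 6 libraries exposed to LPS against the 2 CTRL libraries, 0.208% of all genes were called and no member was in edgeR or limma-voom. DESeq2 called 2, mt-Rnr1 higher and mt-Nd5 lower, and 7 members were at an unadjusted p under 0.05, beside 6.2% of all genes. The 13 mRNAs were all negative, beside 50.8% of all genes, with a median of -0.23 (range -0.39 to -0.10). mt-Nd5 was the 1 mRNA with all 6 libraries below both CTRL libraries on TMM-scaled CPM, beside 4.22% of all genes (no mRNA was above both, beside 4.44%), and without TMM scaling the second CTRL and second LPS+DHEA+Nb libraries were level at 669 CPM.

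The light-strand mRNA mt-Nd6 made up 1.41 and 1.51% of mRNA counts for CTRL, 1.19 and 1.27% for LPS, 1.4 and 1.24% for LPS+DHEA, and 1.36 and 1.42% for LPS+DHEA+Nb. Both LPS libraries were below both CTRL libraries. The exact permutation test over the 4 groups gave p = 0.2 (adjusted 0.495) and for LPS-exposed against CTRL p = 0.143 (adjusted 0.375). mt-Co1 made up 43.2 and 43.9% of the mRNA counts for CTRL, 47.3 and 45.5% for LPS, 45 and 47.2% for LPS+DHEA, and 43.4 and 43.3% for LPS+DHEA+Nb, so that CTRL and LPS+DHEA+Nb libraries were all below the others in a share chosen after its values were seen.

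Mature tRNAs are short, folded RNAs that bring amino acids to the ribosome. All 22 together had 964 to 1676 counts per library, 0.17 to 0.214% of the mitochondrial counts. The strands differed. Of 8 tRNA genes on the strand of mt-Nd6, 6 had over 50 counts in every library (mt-Ta, mt-Tn, mt-Tc, mt-Ty, mt-Te and mt-Tp) and 2 had at most 5 in each. Of 14 tRNA genes on the other strand, 1 had over 50 counts in every library, mt-Tl1, and 13 had under 35 in each, 5 of them at most 5. Without a stated strand setting, reads of both strands cannot be told apart in these counts. mt-Ts1 had 0 counts in all 8 libraries, which allows up to 3 counts or 0.0465 to 0.0489 CPM in a library, for counting error alone.

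The 3 tRNAs with the highest mean CPM, and mt-Te beside mt-Nd6, are shown because they hold most of the tRNA signal described here. Capitals mark the anticodon, and the sequences are the RNA strand in DNA letters from GENCODE M21 on GRCm38. mt-Tl1, for leucine, lies at chrM:2676-2750 on the plus strand between mt-Rnr2 and mt-Nd1. mt-Tn, for asparagine, lies at chrM:5089-5159, mt-Tc, for cysteine, at chrM:5192-5257 and mt-Te, for glutamate, at chrM:14071-14139, all on the minus strand.
mt-Tl1: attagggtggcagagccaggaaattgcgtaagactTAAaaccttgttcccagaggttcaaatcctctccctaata
mt-Tn: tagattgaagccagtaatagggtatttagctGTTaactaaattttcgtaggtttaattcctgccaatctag
mt-Tc: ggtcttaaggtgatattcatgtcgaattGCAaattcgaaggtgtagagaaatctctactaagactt
mt-Te: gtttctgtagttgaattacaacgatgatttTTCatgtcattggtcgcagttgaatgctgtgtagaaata

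mt-Tl1 had 6.51 and 3.81 CPM for CTRL, 3.27 and 4.37 for LPS, 3.87 and 4.54 for LPS+DHEA, and 3.82 and 4.33 for LPS+DHEA+Nb. mt-Tn had 4.37 and 3.1 CPM for CTRL, 3.09 and 3.85 for LPS, 4.41 and 3.92 for LPS+DHEA, and 3.54 and 3.79 for LPS+DHEA+Nb. mt-Tc had 3.98 and 2.28 CPM for CTRL, 2.46 and 2.88 for LPS, 3.71 and 3.08 for LPS+DHEA, and 2.52 and 2.89 for LPS+DHEA+Nb. For these 3 the CTRL and LPS libraries overlapped, and no comparison passed the test. The tRNA total of 26.4 and 17.4 CPM for CTRL, 15.1 and 19 for LPS, 22 and 19.1 for LPS+DHEA, and 17.9 and 20.3 for LPS+DHEA+Nb gave p = 0.657 in the exact permutation test over the 4 groups (adjusted 0.657). Per 1000 mRNA counts there were 1.74 to 2.17 tRNA counts, with p = 0.505 in the same exact permutation test (adjusted 0.606). In LPS against CTRL, 11 of the 14 tested tRNAs had negative log2 fold changes, with a median of -0.43 and a range of -1.28 to 0.99.

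mt-Te, which adjoins mt-Nd6 with no base between them, was the tRNA with the smallest p in LPS against CTRL. It had 3.52 and 3.04 CPM for CTRL, 1.46 and 1.97 for LPS, 2.68 and 2.12 for LPS+DHEA, and 2.87 and 3.42 for LPS+DHEA+Nb. Both LPS libraries lay below the other 6. The log2 fold change was -0.96 (SE 0.26; adjusted p 0.294 in edgeR) in LPS against CTRL and 0.88 (SE 0.26; adjusted p 0.448 in edgeR) in LPS+DHEA+Nb against LPS. Per 1000 mt-Nd6 counts it gave 20.6 and 20.9 counts for CTRL, 14.1 and 16.2 for LPS, 18.5 and 18.4 for LPS+DHEA, and 21 and 22.2 for LPS+DHEA+Nb, a ratio chosen after its values were seen, as was the choice of mt-Te. mt-Ts2, for serine, had 18 and 17 counts for CTRL, 1 and 16 for LPS, 13 and 1 for LPS+DHEA, and 1 and 1 for LPS+DHEA+Nb. Its unadjusted p in LPS+DHEA+Nb against CTRL was 0.0477, with an adjusted p of 1 in edgeR, and libraries at 1 count occurred in all groups but CTRL. It too was picked after its values were seen.

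**Figure D5:**
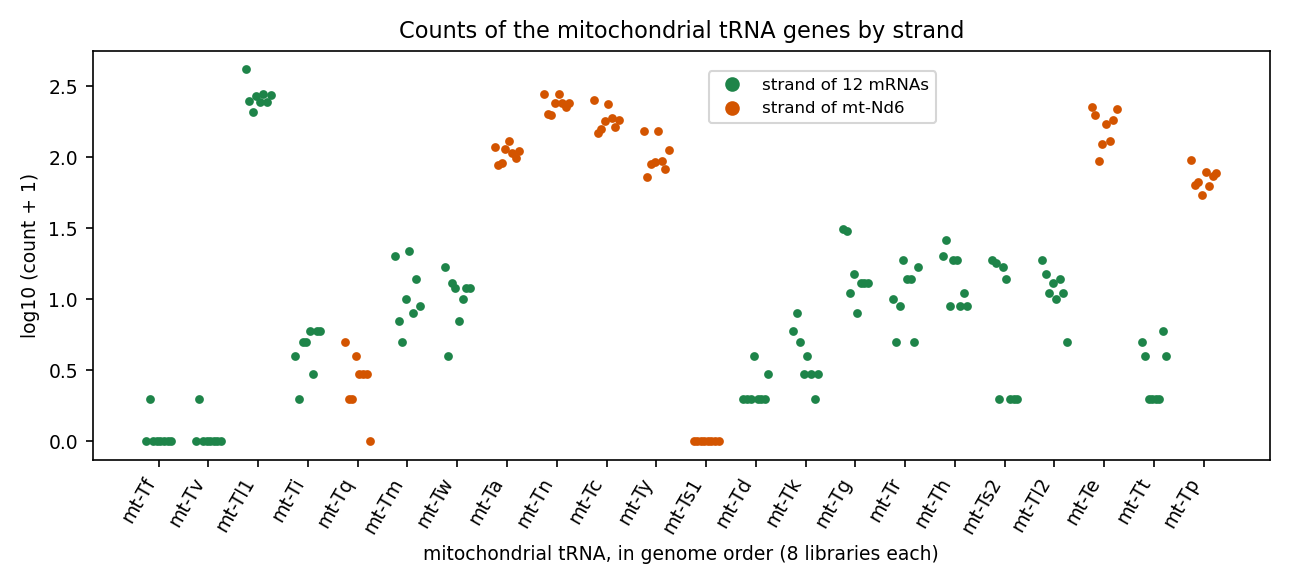
Counts of the 22 mitochondrial tRNA genes as log10 of the count plus 1 (y) in genome order (x), 8 points per gene, 1 per library, coloured by strand. Apart from mt-Tl1, genes with more than 50 counts in every library are on the strand of mt-Nd6, and mt-Ts1 is at 0 in all 8 libraries.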

How the data were processed

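Libraries were made from TRIzol RNA with a KAPA stranded kit, per the labels' protocols. The submitters' processing notes name HISAT, featureCounts 1.5.0-p3 and GRCm38, without their roles. The authors deposited 1 value for each Ensembl gene, read here as an expected count with no depth scaling. All are whole, but 33.5% of those between 1 and 40 are multiples of 4, so they may not be plain read counts. They were used without rounding.

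Each library held 61.3 to 64.5 M counts. CPM scales them to 1 M. In edgeR 4.0.16, low genes were removed by filterByExpr (at least 10 counts, 15 in total), TMM factors were 0.985 to 1.015, and 1 quasi-likelihood model held the 4 group means, which left 4 residual degrees of freedom. The adjusted p is Benjamini-Hochberg over 26414 genes in each of 7 comparisons, called under 0.05. The 6 measures fixed for testing, the class shares and ratios, were tested by exact two-sided permutation over libraries on log2 values. The steps were tested on simulated data. Genes named are all mRNAs and rRNAs, the 3 tRNAs of highest mean CPM, called members, and in each list of related nuclear genes the 2 with the smallest p in LPS against CTRL. Of 8 listed chromosome 1 copies, 7 are copies and 1 is a non-coding RNA gene elsewhere. Sequences and coordinates (1-based) are from GENCODE M21. The members, lists, tests and naming rule were chosen with earlier results of these data known. Alternatives were other scalings and filters, DESeq2 1.42.0, limma-voom (limma 3.58.1), counts divided by 4, a replicate block, the 2 groups alone, each library left out and, chosen after seeing the data, the chromosome 1 copies left out or added and the overlap of groups on unscaled CPM.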

Additional observations from a re-analysis of the deposited data

How the results depend on the processing

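The number of members called moved with the setting. In LPS+DHEA against CTRL the single call, mt-Rnr1, was 0 with limma-voom and with only the 2 groups in the fit, and 0 to 1 over the libraries left out 1 at a time (0 without the second CTRL library or either LPS+DHEA library). In LPS against CTRL there was 1 call with no filter on low counts (mt-Rnr1), 3 with DESeq2 (mt-Rnr1 higher, mt-Nd5 and mt-Nd6 lower), and 0 to 1 over the libraries left out, the 1 being mt-Nd1 lower without the second CTRL library. In LPS+DHEA+Nb against LPS+DHEA there was 1 with no filter and 1 with DESeq2, and for the LPS-exposed libraries 1 with no filter and 2 with DESeq2. The cause was not tested. Over all genes, DESeq2 called 291 in LPS against CTRL where edgeR called 78.

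Leaving out 1 library at a time, the median log2 fold change of the 13 mRNAs ranged from -0.52 to -0.18 in LPS, -0.43 to -0.08 in LPS+DHEA, -0.26 to 0.08 in LPS+DHEA+Nb and -0.41 to -0.07 in the LPS-exposed libraries, each against CTRL, and from 0.16 to 0.32 in LPS+DHEA+Nb against LPS. Single log2 fold changes that turned sign when 1 library was left out had these ranges. In LPS against CTRL they were -0.36 to 0.29 for mt-Rnr2 and -0.56 to 0.13 for mt-Nd1, turning without the first CTRL library, and for mt-Rnr2 also without the first LPS library (0.01). In LPS+DHEA against CTRL they were -0.43 to 0.26 for mt-Nd1, -0.25 to 0.07 for mt-Co1, -0.25 to 0.03 for mt-Co3 and -0.39 to 0.04 for mt-Nd3, turning without the first CTRL library, and -0.11 to 0.53 for mt-Rnr2, turning without the second CTRL and the second LPS+DHEA library (-0.01). The mRNA and rRNA fold changes kept their sign under the other scalings and filters, DESeq2 and limma-voom in the 3 comparisons where each gene was refitted (LPS and LPS+DHEA against CTRL, LPS+DHEA+Nb against LPS). The 6 exact tests over the 4 groups stayed above 0.05 after adjustment under all alternatives run. With a smallest p of 0.00952 and adjustment over 6 measures, 1 measure alone could not have passed. This outcome therefore says little about how firm the measures are. The exact tests of LPS-exposed against CTRL libraries were not followed under the alternatives. With their smallest possible p of 0.0357 and adjustment over 6 measures, 1 measure alone could not have passed there either. Their adjusted values therefore say as little.

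The replicate numbers gave no sign of pairing, since deviations of same-numbered libraries correlated at -0.03 to 0.03. Such values do not exclude a pairing that moved few genes. With the number as a replicate block, LPS+DHEA against CTRL had 0 members called, mt-Rnr1 being at 0.69 with an adjusted p of 0.0727 in edgeR, and no other count of members called moved. Over all genes that block took the calls for the LPS-exposed libraries from 55 to 36.

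With 2 libraries a group and 4 residual degrees of freedom, the size of the mRNA differences against CTRL is limited by the gap between the CTRL libraries. Their mRNA shares, 1.21 and 0.964% of all counts, had an SD of 0.176, beside 0.0537 to 0.076 in the other groups. Pooled over all groups, the SD between replicates of the mean log2 CPM of the 13 mRNAs was 0.163. Low counts limit mostly the tRNAs, of which 13 on 1 strand and 2 on the other had under 35 counts in every library. The part of depth in this was not tested.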
